A study of Mus musculus with 8 samples.

Results

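Endometrial transcripts of 10 genes that mark mast cells and eosinophils were compared between WT and *Thra1*PV/+ mice. The set was chosen by symbol, and it held 6 mast cell genes (*Cpa3*, *Cma1*, *Tpsb2*, *Mcpt4*, *Kit* and *Ms4a2*) and 4 eosinophil genes (*Prg2*, *Epx*, *Siglecf* and *Ccr3*). All 10 were found among the 52325 genes of the deposited count table, each at a different identifier. The libraries were bulk RNA-seq of endometrium cut by laser from frozen uterine sections of 4 WT and 4 *Thra1*PV/+ mice, all matched at metestrus, the phase of the estrous cycle that follows ovulation. The *Thra1*PV/+ mice were heterozygous for the PV mutation of *Thra*, which encodes thyroid hormone receptor α1, and the mutant receptor is dominant negative. The mutation is a germline knock-in, so it is not limited to the endometrium or to any cell type. No allele or agent besides it is given for these libraries, and the age of the mice is not given in the sources used here. In bulk RNA, fewer cells of a type and less RNA per cell cannot be told apart.

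Mast cells are tissue-resident cells of the blood lineage that store histamine and proteases in granules and release them when their IgE receptor is crosslinked. They depend on stem cell factor, which acts on the receptor KIT, and they carry ST2, the receptor of IL-33. Eosinophils are granulocytes that enter tissues along eotaxins, among them CCL11, through the receptor CCR3. They are known as regular residents of the rodent uterus, whose numbers follow the estrous cycle. The RNA of their granule proteins is made mainly in precursors in the bone marrow.

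The promoters of the granule proteases *Cpa3*, *Cma1* and *Mcpt4* are shown because these genes had their highest counts in the same library. Of the 10 genes, 8 had a promoter entry in the RefSeq table (GRCm38.p6), and *Tpsb2* and *Prg2* had none. Each sequence gives the 250 bases before the transcription start on the gene's own strand, and capitals mark GATAA, the core of the sequence that GATA factors bind, read on either strand (TTATC where it lies on the other strand). The windows are chr3:20242182-20242431 (minus strand) for *Cpa3*, chr14:55944676-55944925 (minus strand) for *Cma1* and chr14:56062311-56062560 (minus strand) for *Mcpt4*.
Cpa3: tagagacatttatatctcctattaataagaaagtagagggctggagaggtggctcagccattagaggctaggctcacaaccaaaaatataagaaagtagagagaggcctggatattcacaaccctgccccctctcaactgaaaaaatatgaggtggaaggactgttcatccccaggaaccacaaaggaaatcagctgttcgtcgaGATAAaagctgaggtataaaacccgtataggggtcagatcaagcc
Cma1: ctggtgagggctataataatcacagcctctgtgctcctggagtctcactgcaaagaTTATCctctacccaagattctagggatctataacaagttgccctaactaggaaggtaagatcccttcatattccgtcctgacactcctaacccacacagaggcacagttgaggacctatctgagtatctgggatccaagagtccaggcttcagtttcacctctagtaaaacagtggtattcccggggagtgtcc
Mcpt4: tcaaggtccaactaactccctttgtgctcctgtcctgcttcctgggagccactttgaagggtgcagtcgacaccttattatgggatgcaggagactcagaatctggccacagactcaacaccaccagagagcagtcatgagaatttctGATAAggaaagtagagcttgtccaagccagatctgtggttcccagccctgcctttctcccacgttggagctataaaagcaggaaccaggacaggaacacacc

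GATAA was present in the windows of 5 of the 8 genes, with 3 matches in *Ms4a2* and 1 match each in *Cpa3*, *Cma1*, *Mcpt4* and *Ccr3*. Of all 32851 RefSeq promoter windows of the same length, 22.6% held it. CACATG, an E-box, or its other-strand form CATGTG was present only in *Siglecf* among the 8 genes, with 2 matches, and in 12.3% of all windows. These matches describe the letters of the windows and are not binding sites shown by these data.

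Libraries held 48791602 to 59818887 counts. Of the 52325 genes, 18174 passed the filter on low counts and entered edgeR's quasi-likelihood test. A call needed at least a 2-fold change with an adjusted p of at most 0.1, and 0.99% of the genes met it, 0.924% with higher and 0.066% with lower levels in *Thra1*PV/+. At this depth 3 counts, taken as the floor of a library, came to 0.0525 to 0.0628 CPM, the count scaled to library size after TMM normalization. The level of *Thra* itself was 80.01 ± 34.2 CPM (SD, 4 libraries) in *Thra1*PV/+ and 77.9 ± 33.7 CPM (4 libraries) in WT tissue (log2 fold change 0.04), and counts per gene do not separate the PV allele from the WT allele. WT library 1 stood apart in muscle genes. The 6 smooth muscle genes (*Myh11*, *Acta2*, *Des*, *Cnn1*, *Actg2* and *Smtn*) summed to 9697 CPM there, against 375 to 818 CPM in the other 3 WT and 121 to 432 CPM in the *Thra1*PV/+ libraries.

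The names of the cell types were only in part borne out by the counts. Of the 10 genes, 9 had a count in any library, 3 (*Kit*, *Prg2* and *Siglecf*) passed the filter, and 7 did not. The 4 mast cell proteases were at or near the floor in every library except WT library 1, *Ms4a2* had counts in 2 libraries, and *Epx* had none. *Kit*, *Prg2*, *Siglecf* and *Ccr3* and, from 1 library of each genotype, *Ms4a2* had higher mean levels in *Thra1*PV/+ endometrium, but edgeR called 0 of the 3 tested genes. Their unadjusted p-values were all under 0.05, as were those of 9.77% of all tested genes (5.05% with higher and 4.72% with lower levels in *Thra1*PV/+). The set is therefore described gene by gene, and not as a measure of cell numbers.

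**Figure D1:**
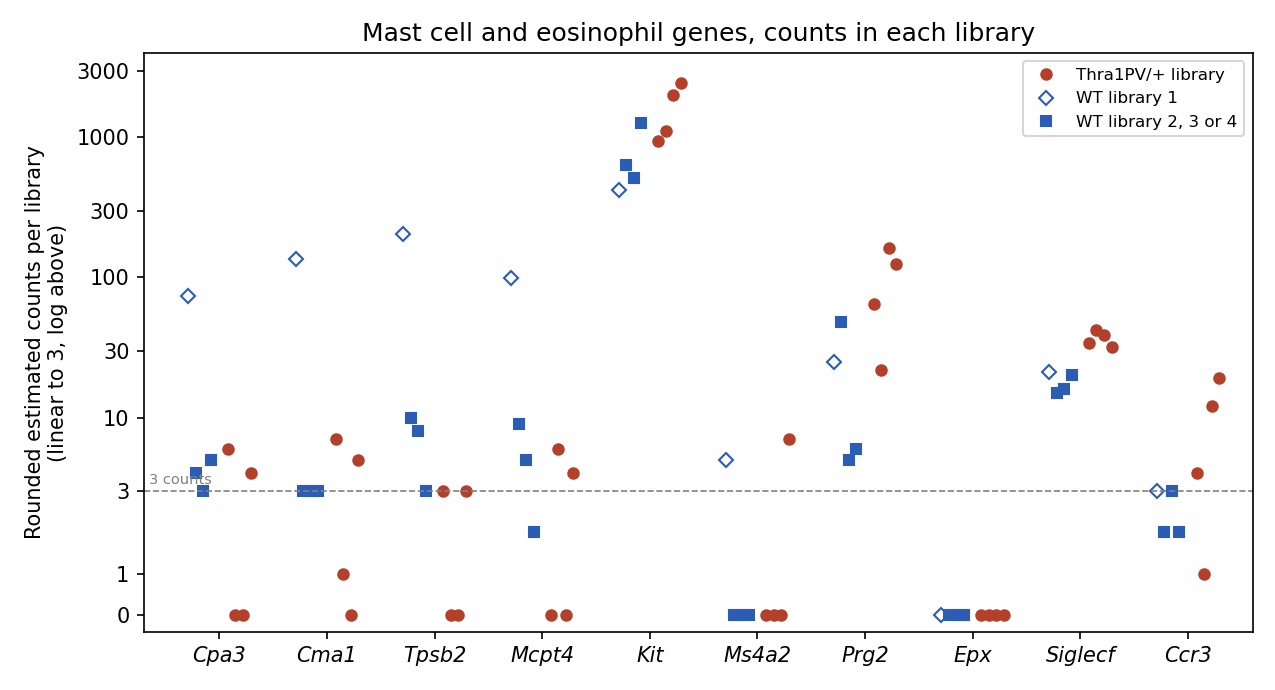
Estimated counts of the 10 genes in each of the 8 libraries, on an axis that is linear up to 3 counts and logarithmic above, with a dashed line at the floor of 3 counts. Points of WT library 1 stand far above all others for *Cpa3*, *Cma1*, *Tpsb2* and *Mcpt4*, while *Epx* lies at 0 in all libraries.

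*Cpa3* encodes mast cell carboxypeptidase A3 (ENSMUSG00000001865.2, GRCm38 chr3:20215620-20242181, minus strand). It had 6, 0, 0 and 4 counts in *Thra1*PV/+ libraries 1 to 4 and 74, 4, 3 and 5 counts in WT libraries 1 to 4. WT library 1 alone was high, and the other 7 libraries ranged from 0 to 6 counts. Mean levels (± SD, n = 4 per genotype) were 0.0450 ± 0.0545 CPM in *Thra1*PV/+ and 0.412 ± 0.666 CPM in WT endometrium. The two-sided exact permutation p was 0.229, and with 70 ways to arrange the libraries no p below 0.0286 can arise.

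*Cma1* encodes the chymase mast cell protease 5 (ENSMUSG00000022225.7, chr14:55941451-55944675, minus strand). Its counts were 7, 1, 0 and 5 in *Thra1*PV/+ and 135, 3, 3 and 3 in WT libraries. Apart from WT library 1 the genotypes covered each other, with the highest remaining count in a *Thra1*PV/+ library. Mean levels were 0.0591 ± 0.0595 CPM in *Thra1*PV/+ and 0.688 ± 1.26 CPM in WT endometrium (exact permutation p = 0.514).

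*Mcpt4* encodes the chymase mast cell protease 4 of connective tissue mast cells (ENSMUSG00000061068.7, chr14:56059629-56062313, minus strand), in the same chymase cluster as *Cma1*. It had 0, 6, 0 and 4 counts in *Thra1*PV/+ and 99, 9, 5 and 2 counts in WT libraries. The genotypes overlapped, since the lowest WT library had fewer counts than 2 of the *Thra1*PV/+ libraries. Levels were 0.0479 ± 0.0592 CPM and 0.548 ± 0.894 CPM (exact permutation p = 0.143).

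*Tpsb2* encodes the tryptase mast cell protease 6 (ENSMUSG00000033825.9, chr17:25366305-25369098, plus strand). It had 3, 0, 0 and 3 counts in *Thra1*PV/+ and 203, 10, 8 and 3 counts in WT libraries. The lowest WT library and the highest *Thra1*PV/+ libraries held the same count of 3, and only their TMM factors set 0.0628 CPM in WT library 4 above 0.0550 CPM in *Thra1*PV/+ library 1. In CPM the genotypes therefore did not overlap, with 0.0269 ± 0.0311 CPM in *Thra1*PV/+ and 1.07 ± 1.87 CPM in WT endometrium. The exact permutation p was 0.0286, the smallest it can give, and 0.0571 where CPM was scaled by library size only.

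WT library 1 held 511 counts of these 4 proteases, or 84.0% of all (95% exact binomial interval 80.9% to 86.9%, for counting error only). The 4 *Thra1*PV/+ libraries together held 39 counts and the other 3 WT libraries 58. The ratio of *Thra1*PV/+ to WT counts, scaled to library size, was 0.114 for *Cpa3* (95% exact counting interval 0.0528 to 0.220) and 0.609 (0.236 to 1.54) without WT library 1. For *Cma1* it was 0.0886 (0.0460 to 0.156) with that library and 1.06 (0.418 to 2.80) without it. For *Mcpt4* the ratio moved from 0.0853 (0.0399 to 0.163) to 0.457 (0.185 to 1.07). For *Tpsb2*, the only one of the 4 whose interval lay below 1 also without that library, it was 0.0263 (0.00954 to 0.0581) with and 0.209 (0.0690 to 0.535) without it. The direction of *Cma1* thus rested on WT library 1, and these intervals leave out the spread between mice.

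The 4 proteases were too low for the edgeR filter. With the filter lowered to at least 1 count in any library, which left 30306 genes of which 0.617% were called and 8.12% had an unadjusted p under 0.05, the log2 fold changes were -5.13 for *Tpsb2* (SE 1.57, adjusted p = 0.398), -3.45 for *Cma1* (adjusted p = 0.604), -3.43 for *Mcpt4* (adjusted p = 0.588) and -3.08 for *Cpa3* (adjusted p = 0.619). None was called. DESeq2 gave no p-value for any of the 4, and for each of them the largest Cook's distance, a measure of how far 1 library pulls the estimate, was that of WT library 1.

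Smooth muscle genes and the proteases peaked in the same library. All 4 proteases and all 6 smooth muscle genes were highest in WT library 1, which held 78.2% of the summed counts of the muscle genes. The summed protease level was 9.74 CPM there, against 0.272 to 0.469 CPM in WT libraries 2 to 4 and 0 to 0.294 CPM in the *Thra1*PV/+ libraries. Of the 6 muscle genes, edgeR called 0 and gave 6 an unadjusted p under 0.05 in the direction of lower levels in *Thra1*PV/+. Their median log2 fold change was -4.31. Without WT library 1 the median was -1.66, and 1 of the genes had an unadjusted p under 0.05. The 5 blood genes (4 globin genes and *Alas2*) also peaked in that library, at 179 CPM, against 17.1 to 57.5 CPM in the other WT and 14.6 to 29.2 CPM in the *Thra1*PV/+ libraries. The part of muscle or blood in the protease counts was not tested.

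**Figure D2:**
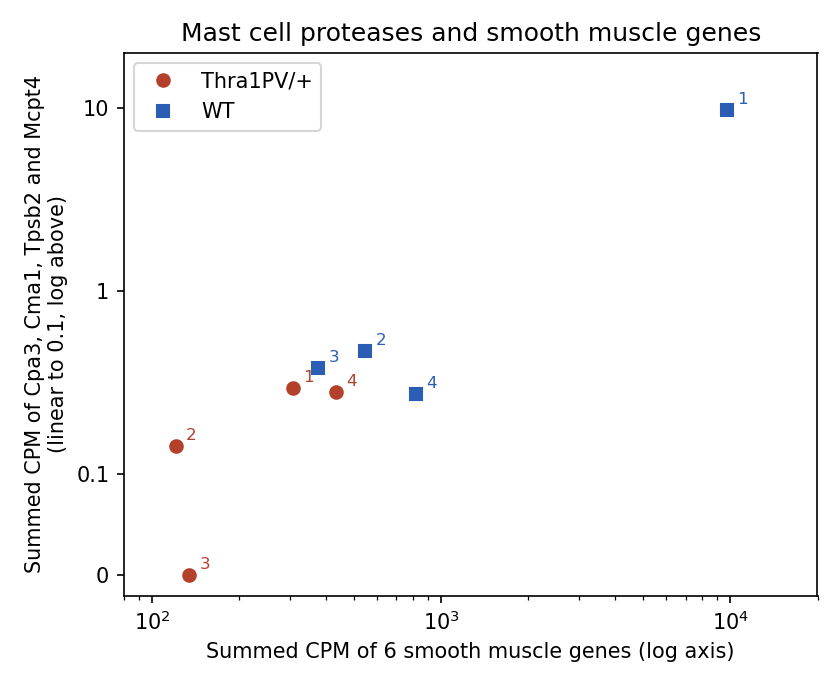
Summed CPM of the 4 mast cell proteases (vertical axis) against summed CPM of the 6 smooth muscle genes (horizontal axis, logarithmic), 1 point for each of the 8 libraries. WT library 1 lies alone at 9697 CPM of muscle genes and 9.74 CPM of proteases, and the other 7 libraries lie at or below 818 CPM and 0.469 CPM.

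*Kit* encodes the receptor of stem cell factor, which mast cells need and which melanocytes, interstitial cells and blood progenitors also carry (ENSMUSG00000005672.12, chr5:75574916-75656722, plus strand). Its level was 17.4, 22.6, 41.0 and 43.1 CPM in *Thra1*PV/+ libraries 1 to 4 and 8.03, 11.4, 10.2 and 26.6 CPM in WT libraries 1 to 4. WT library 4 lay above 2 *Thra1*PV/+ libraries, so the genotypes overlapped, and WT library 1, highest in every protease, was the lowest of all 8 in *Kit*. The means were 31.02 ± 13.0 CPM (SD, n = 4) and 14.0 ± 8.47 CPM (n = 4). The log2 fold change was 1.14 (SE 0.45), with an adjusted p of 0.452 by edgeR, and the exact permutation p was 0.0857. Without WT library 4 the log2 fold change was 1.65, still not called.

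Other lists whose cells carry KIT are given beside it. The 6 melanocyte genes (*Dct*, *Tyrp1*, *Pmel*, *Mlana*, *Tyr* and *Mitf*) summed to 21.4 to 41.7 CPM in *Thra1*PV/+ and 28.8 to 62.2 CPM in WT libraries, and the 3 interstitial cell genes (*Ano1*, *Etv1* and *Gpr20*) to 48.0 to 130 CPM and 21.8 to 72.4 CPM. Each sum was mostly 1 gene. *Mitf*, which is also in the list of other mast cell genes below, held 5638 of 6618 *Thra1*PV/+ and 7605 of 8680 WT melanocyte list counts. *Ano1* held 15908 of 16461 and 9619 of 10404 counts of the interstitial list. edgeR called 0 of the 4 and 0 of the 2 tested genes of these lists, and 0 had an unadjusted p under 0.05. Their medians were -0.29 and 0.12, against a median log2 fold change of -0.05 over all tested genes. The 0.12 is the midpoint of the 2 tested interstitial genes, *Ano1* at 0.70 and *Etv1* at -0.47. The cell type that carried the *Kit* transcripts was not tested.

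*Ms4a2* encodes the β chain of the high-affinity IgE receptor, found on mast cells and basophils (ENSMUSG00000024680.12, chr19:11615523-11623719, minus strand). It had 7 counts in *Thra1*PV/+ library 4, 5 counts in WT library 1 and 0 in the other 6 libraries. With 1 library of each genotype above 0, no difference was detectable at this depth. The ratio of *Thra1*PV/+ to WT counts was 1.37 (95% exact counting interval 0.375 to 5.49).

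*Epx* encodes eosinophil peroxidase (ENSMUSG00000052234.2, chr11:87864000-87875536, minus strand). It had 0 counts in all 8 libraries, which allows up to 3 counts in each, and no fold change is given.

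*Prg2* encodes the major basic protein of the eosinophil granule (ENSMUSG00000027073.5, chr2:84980461-84983632, plus strand). It had 65, 22, 163 and 124 counts in *Thra1*PV/+ libraries 1 to 4 and 25, 48, 5 and 6 counts in WT libraries 1 to 4. In CPM these were 1.19, 0.446, 3.33 and 2.17 in *Thra1*PV/+ and 0.477, 0.866, 0.0994 and 0.126 in WT endometrium. *Thra1*PV/+ libraries 1, 3 and 4 lay above every WT library, and *Thra1*PV/+ library 2 lay below WT libraries 1 and 2. Means were 1.78 ± 1.25 CPM and 0.392 ± 0.360 CPM. The log2 fold change was 2.17 (SE 0.84, adjusted p = 0.447 by edgeR), and the exact permutation p was 0.0857.

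*Siglecf* encodes a sialic acid binding receptor of eosinophils that some macrophages also carry (ENSMUSG00000039013.16, chr7:43351341-43359531, plus strand). It had 34, 42, 39 and 32 counts in *Thra1*PV/+ and 21, 15, 16 and 20 counts in WT libraries. The *Thra1*PV/+ libraries, at 0.560 to 0.852 CPM, did not overlap the WT libraries, at 0.271 to 0.418 CPM. Of all tested genes 6.04% showed such a separation in log2 CPM in either direction and 3.55% in this direction. Means were 0.708 ± 0.138 CPM (SD, n = 4) and 0.352 ± 0.0696 CPM (n = 4). The log2 fold change was 1.004 (SE 0.32), not called by edgeR (adjusted p = 0.349), and the exact permutation p was 0.0286. DESeq2 called it, with a log2 fold change of 1.03 and an adjusted p of 0.0801, as it did 3.58% of the 22073 genes to which it gave an adjusted p (2.57% with higher levels in *Thra1*PV/+).

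*Ccr3* encodes the eotaxin receptor (ENSMUSG00000035448.9, chr9:124021972-124031689, plus strand). It had 4, 1, 12 and 19 counts in *Thra1*PV/+ and 3, 2, 3 and 2 counts in WT libraries. *Thra1*PV/+ libraries 1, 3 and 4 lay above all WT libraries, and *Thra1*PV/+ library 2 lay below them. The ratio of *Thra1*PV/+ to WT counts was 3.53 (95% exact counting interval 1.72 to 7.98), while the spread between libraries left 0.168 ± 0.146 CPM against 0.0487 ± 0.0115 CPM (exact permutation p = 0.257). All 4 WT libraries were at or under the floor of 3 counts.

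**Figure D3:**
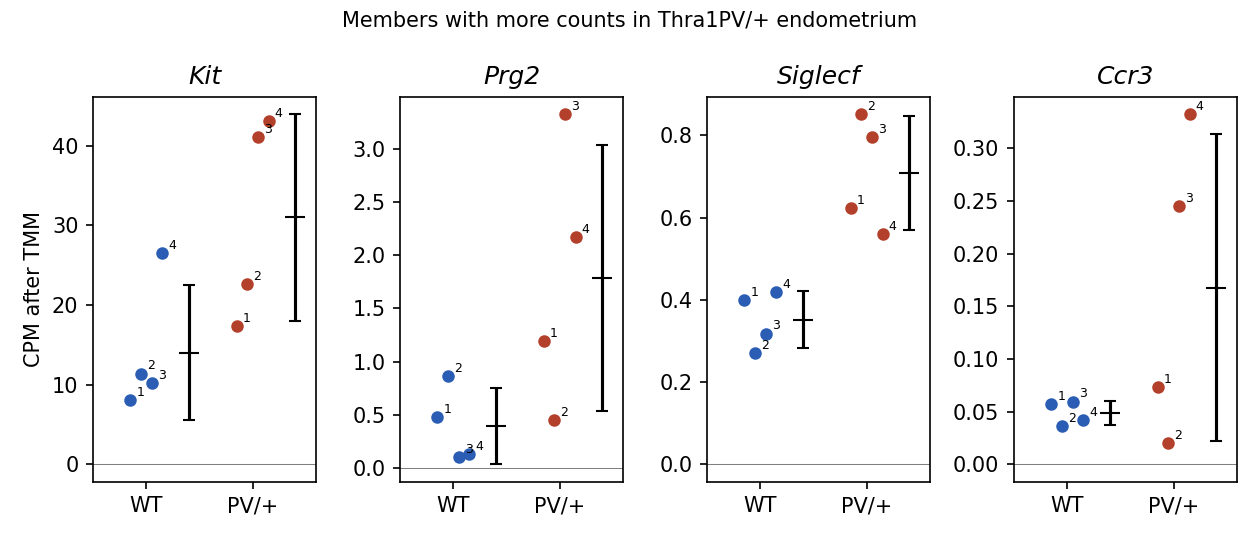
CPM of *Kit*, *Prg2*, *Siglecf* and *Ccr3* in each of the 4 *Thra1*PV/+ and 4 WT libraries, with the mean and SD of each genotype. The genotypes separate for *Siglecf*, and they overlap for *Kit*, *Prg2* and *Ccr3*.

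**Figure D4:**
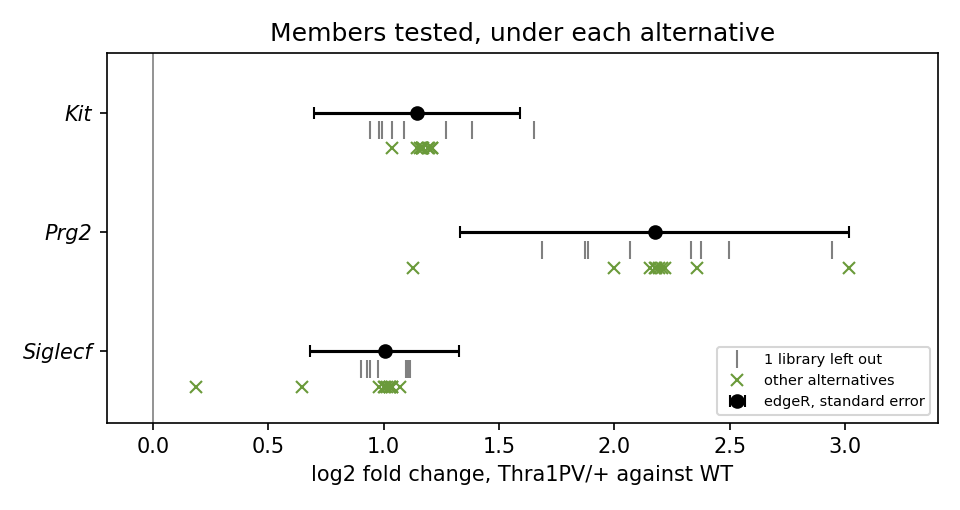
Log2 fold changes (*Thra1*PV/+ against WT) of *Kit*, *Prg2* and *Siglecf*, with the edgeR estimate and its standard error as a point and bar, the estimates with 1 library left out as ticks, and those under other alternatives as crosses. All lie above 0, from 0.94 to 1.65 for *Kit*, 1.13 to 3.02 for *Prg2* and 0.19 to 1.12 for *Siglecf*.

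Among the 7 macrophage genes, some of whose cells can carry SIGLECF, edgeR called 0 of 7, and 0 had an unadjusted p under 0.05 (median log2 fold change 0.34). Their sum ranged from 193 to 671 CPM in *Thra1*PV/+ and from 232 to 441 CPM in WT libraries. The 6 leukocyte genes summed to 315 to 481 CPM in *Thra1*PV/+ and 307 to 387 CPM in WT libraries. Of these, 0 were called and 1, *Cd53*, had an unadjusted p under 0.05 (log2 fold change 0.87, adjusted p = 0.398 by edgeR). The part of other leukocytes in *Siglecf* was not tested.

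Levels of different genes were compared per kilobase of the longest transcript. In *Thra1*PV/+ endometrium the level was highest for *Kit* (5.92 ± 2.47 CPM per kilobase), then *Prg2* (2.13 ± 1.49) and *Siglecf* (0.272 ± 0.0531), followed by *Cma1*, *Ccr3*, *Mcpt4*, *Cpa3*, *Tpsb2* and *Ms4a2*. Among neighbours in this order, the libraries of *Prg2* and *Siglecf* did not overlap, nor did those of *Siglecf* and *Cma1*, and all other neighbours above *Epx* overlapped. In WT endometrium *Kit* was again first (2.68 ± 1.62 CPM per kilobase). *Tpsb2* (0.8286 ± 1.45), *Cma1*, *Mcpt4*, *Prg2*, *Cpa3* and *Siglecf* (0.135 ± 0.0267) followed, and of the neighbours above *Epx* only *Siglecf* and *Ccr3* did not overlap. The places of the 4 proteases were set by WT library 1. Over WT libraries 2 to 4, an average added after seeing the data, *Prg2* (0.434 CPM per kilobase) and *Siglecf* (0.129) came next after *Kit*, and *Tpsb2* (0.104), *Mcpt4* (0.0913), *Cpa3* (0.0544) and *Cma1* (0.0540) followed.

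Genes whose pattern was most like that of *Kit* and of *Prg2* were ranked by Pearson's r of log2 CPM over the 8 libraries, which share the 4-against-4 genotype split. For *Kit* the 5 highest were *Sectm1a* (r = 0.955, Spearman's rho = 0.952), *Cybc1* (r = 0.947), *Cacybp* (r = 0.943), *Igfals* (r = 0.942) and *Gm39459* (r = 0.940). For *Prg2* they were *Iglv1* (r = 0.979, rho = 0.952), *Iglc1* (r = 0.972), *Gm12766* (r = 0.970), *Igkv15-103* (r = 0.964) and *Ighv5-17* (r = 0.954). Of the latter, 4 are immunoglobulin genes, and *Iglv1* ranged from 0.750 to 24.6 CPM in *Thra1*PV/+ and from 0.0628 to 3.25 CPM in WT libraries. These are the top ranks among all tested genes and are given with no test.

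The lists of other mast cell, eosinophil and basophil genes gave few differences. Of 20 other mast cell genes 11 were tested and 0 called by edgeR, with a median log2 fold change of 0.24, and 3 had an unadjusted p under 0.05. The first was *Slc18a2*, the vesicular monoamine transporter that loads histamine (2.51, SE 0.89, adjusted p = 0.395 by edgeR). DESeq2 called it, with an adjusted p of 0.0599. Another was *Fcer1g*, the shared γ chain of Fc receptors (0.59, adjusted p = 0.393 by edgeR). The third was *Gata2*, a transcription factor that mast cells share with endometrial stroma (-1.07, adjusted p = 0.384 by edgeR). *Slc18a2* had 38, 19, 82 and 65 counts in *Thra1*PV/+ and 13, 0, 8 and 13 counts in WT libraries, with no overlap. *Fcer1a*, the α chain of the IgE receptor, had 0, 0, 1 and 0 counts in *Thra1*PV/+ and 8, 3, 6 and 0 counts in WT libraries. *Tpsab1* had 1, 0, 0 and 2 counts against 11, 0, 0 and 0, again highest in WT library 1.

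Of 12 other eosinophil genes 7 were tested and 0 called by edgeR, with a median log2 fold change of 0.08. Those with an unadjusted p under 0.05 were *Csf2rb* and *Csf2rb2*, which encode β chains of cytokine receptors that many myeloid cells carry. Only the chain of *Csf2rb* serves the receptors for IL-5 and GM-CSF as well as that for IL-3. *Csf2rb2* had 773, 580, 705 and 410 counts in *Thra1*PV/+ and 216, 177, 182 and 314 counts in WT libraries. No library of the groups overlapped (log2 fold change 1.44, SE 0.33, adjusted p = 0.141 by edgeR). *Csf2rb* had a log2 fold change of 1.57 (SE 0.43, adjusted p = 0.247). DESeq2 called both, with adjusted p-values of 0.0228 for *Csf2rb* and 0.0018 for *Csf2rb2*. Their direction was not shared by all genes of the list. *Il5ra*, the α chain of the IL-5 receptor, had 2, 29, 11 and 19 counts in *Thra1*PV/+ and 43, 12, 422 and 11 counts in WT libraries (log2 fold change -3.02, SE 1.34, adjusted p = 0.519 by edgeR), and its log2 fold change was -0.50 without WT library 3. *Ear2*, an eosinophil-associated ribonuclease, had 78, 11, 6 and 8 counts against 49, 87, 16 and 32 (-0.86, SE 0.88, adjusted p = 0.819). *Ear6* was at 0 in all libraries. Of 5 basophil genes 3 were tested and 0 called (median log2 fold change -0.31), 1 (*Gata2*) had an unadjusted p under 0.05, and *Mcpt8*, the basophil granule protease, was at 0 in all libraries.

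The signals these cells respond to lay apart from each other. Of 17 ligand and receptor genes 10 were tested and 0 called by edgeR, with a median log2 fold change of -0.63. *Il33*, an alarmin that acts on mast cells, had 15401, 15515, 14351 and 19372 counts in *Thra1*PV/+ and 830, 472, 581 and 3625 counts in WT libraries, without overlap. Its log2 fold change was 3.46 (SE 0.71, adjusted p = 0.104 by edgeR, not called). DESeq2 called it, with an adjusted p of 1.9e-05. *Il1rl1*, which encodes ST2, the receptor of IL-33, had 84, 10, 20 and 10 counts in *Thra1*PV/+ and 87, 48, 12 and 41 counts in WT libraries, and the genotypes overlapped (-0.63, SE 0.82, adjusted p = 0.862). *Il1rap*, which encodes its co-receptor chain, had a log2 fold change of 0.90 (adjusted p = 0.352).

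*Ccl11*, which encodes eotaxin-1, the ligand of CCR3, had 126, 54, 295 and 81 counts in *Thra1*PV/+ and 725, 441, 2666 and 994 counts in WT libraries. Every *Thra1*PV/+ library lay below every WT library, as in 2.49% of all tested genes. The log2 fold change was -3.14 (SE 0.76, adjusted p = 0.179 by edgeR, and called by DESeq2 with an adjusted p of 0.0007). The other eotaxin gene of the mouse, *Ccl24*, had 0 counts in all *Thra1*PV/+ libraries and 20, 4, 0 and 2 counts in WT libraries. Most of its counts lay in WT library 1. *Tslp*, an epithelial cytokine, had 10, 2, 6 and 8 counts against 29, 16, 27 and 13, without overlap (-1.74, SE 0.51, adjusted p = 0.290 by edgeR, and called by DESeq2 with an adjusted p of 0.0726). *Kitl*, which encodes stem cell factor, had a log2 fold change of -0.55 (SE 0.53, adjusted p = 0.802). *Il5*, the eosinophil growth factor, had 0, 2, 3 and 1 counts against 8, 6, 2 and 3 (count ratio 0.310, 95% exact counting interval 0.101 to 0.807). *Il9r*, the receptor of IL-9, had 22, 2, 17 and 15 counts against 2, 1, 4 and 0, and DESeq2 called it too (adjusted p = 0.0876). *Il3*, *Il9* and *Il13* had 0 counts in all libraries.

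**Figure D5:**
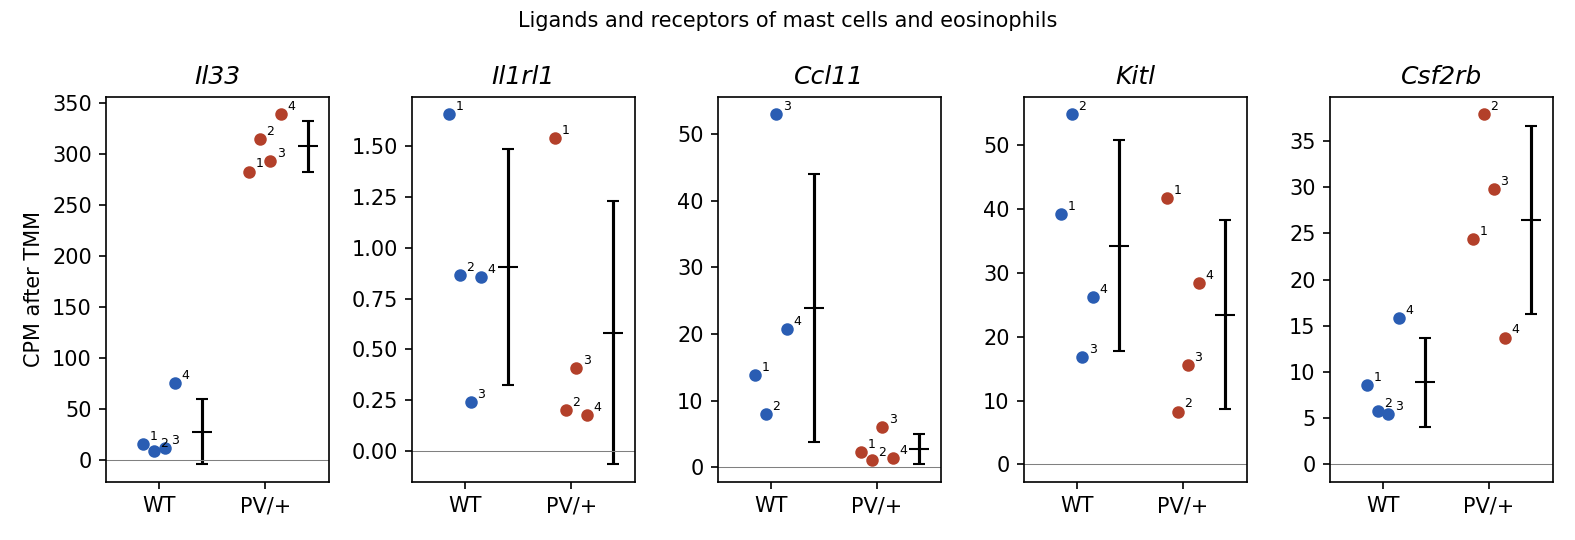
CPM of *Il33*, *Il1rl1*, *Ccl11*, *Kitl* and *Csf2rb* in each of the 4 *Thra1*PV/+ and 4 WT libraries, with the mean and SD of each genotype. *Il33* lies higher and *Ccl11* lower in every *Thra1*PV/+ library, while *Il1rl1*, *Kitl* and *Csf2rb* overlap between the genotypes.

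Markers of other tissue compartments were measured in the same libraries. All 6 squamous epithelium genes (*Krt5*, *Krt14*, *Trp63*, *Krt15*, *Col17a1* and *Dsg3*) were called higher in *Thra1*PV/+ endometrium, with a median log2 fold change of 6.97 and a summed level of 2380 to 3850 CPM against 1.66 to 36.0 CPM. In the other lists edgeR called 0 genes, with median log2 fold changes of -1.31 for 6 endometrial stroma genes, -0.06 for 6 simple epithelium genes, 0.46 for the leukocyte genes, -1.78 for the blood genes and -0.88 for the 2 tested mesothelium genes. Over the 14 lists, 77 of 105 different genes were tested and the 6 squamous genes were the only ones called by edgeR. The part of this difference in the levels of *Kit*, *Prg2*, *Siglecf* or *Il33* was not tested.

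Reads of some of these genes can be shared with close relatives. Of the 31-base words of each gene's transcripts, 12.2% of *Mcpt4*, mostly with *Cma2*, 10.6% of *Cma1*, 4.03% of *Ms4a2* and 0.524% to 0.872% of *Ccr3*, *Tpsb2* and *Siglecf* occurred in transcripts of another gene, and none did for *Cpa3*, *Kit*, *Prg2* and *Epx*. The gene span of *Cpa3* also overlaps the microRNA gene *Mir7007* on the same strand, but no 31-base word of *Cpa3* transcripts occurred in another gene.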

How the data were processed

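RNA was measured in laser-captured endometrium of 4 WT and 4 *Thra1*PV/+ mice. The authors trimmed reads with Trimmomatic, quantified them with Salmon for mm10 and deposited estimated counts per gene, unnormalized, with up to 29.0% of values not whole. The authors also deposited TPM values, used only as an alternative, and 1 column of that table, which matches no sample, was not used. The Salmon version is not given in the sources used here. Identifiers without a symbol held at most 0.00896% of counts and were kept under their identifiers.

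Counts were rounded and tested with edgeR 4.0.16 in R 4.3.3 (filterByExpr, minimum count 10 and total 15; TMM; quasi-likelihood test with genotype as the only term; Benjamini-Hochberg adjustment over 18174 genes). Calls needed a fold change of 2 and an adjusted p of 0.1, the thresholds of the study's methods. Single values of the 9 genes of the set with counts were compared by two-sided exact permutation tests on CPM, without adjustment. The same test was also run, unadjusted, on genes of the other lists and, for the 9, under other normalizations and left-out libraries. Alternatives were DESeq2 1.42.0, limma 3.58.1, other filters and normalizations, a replicate block and leaving out each library. The main edgeR test, DESeq2 and limma voom were tested on simulated data, and the other alternatives were not. Positions are from GENCODE M21 (GRCm38).

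All 10 genes were named, and of the other lists every gene called or with an unadjusted p under 0.05, with 6 ligands and receptors always, though not all of them are reported here. Others, such as *Fcer1a*, *Tpsab1*, *Il5ra*, *Ear2* and *Il9r*, were chosen after their values were seen. The 10 genes and all lists were chosen with earlier results of these data known. Libraries are of separate mice, so p-values measure the spread between mice.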

Additional observations from a re-analysis of the deposited data

Results flagged for a closer look

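In groups of 4 libraries, a library was noted when its gap to the nearest other made up nearly all of the group's range (Dixon's ratio at 95%). Of 52 groups examined 9 passed, where chance gives about 1 in 20. The 2 groups of *Ms4a2* could not fail, since with 3 libraries at 0 any count gives a ratio of 1. In WT endometrium the ratio was 0.967 for *Cpa3*, 0.997 for *Cma1*, 0.969 for *Tpsb2*, 0.935 for *Mcpt4* and 1 for *Ms4a2*. It was 0.979 for the summed CPM of the 4 proteases and 0.953 for that of the smooth muscle genes, all in WT library 1. In *Thra1*PV/+ endometrium it was 1 for *Ms4a2* (library 4, the only one with counts) and 0.918 for the summed mesothelium genes (library 1, 70.2 CPM against 17.4 to 21.7 CPM). The mesothelium sum was higher still in WT libraries 1 and 2, at 144 and 75.8 CPM. These groups share libraries and genes and are not independent.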

How the results depend on the processing

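None of the 10 genes was called under any normalization, filter or left-out library in edgeR (0 to 0 calls). DESeq2 called 1, *Siglecf* (log2 fold change 1.03), and an unadjusted p under 0.05 gave 3. Over all genes, 180 calls became 791 with DESeq2, 311 with limma voom, 81 with at least 10 counts in every library, 119 at an adjusted p of 0.05 and 1775 at an unadjusted p under 0.05. Leaving out 1 library gave 81 to 167, with 116 without *Thra1*PV/+ library 2, 81 without *Thra1*PV/+ library 3 and 114 without WT library 4. The 6 calls in the other lists became 14 with DESeq2 and 3 to 6 with 1 library left out, the 3 without WT library 4. With the replicate block 82 genes were called and 0 of the 10, with log2 fold changes of 1.20 for *Kit*, 2.36 for *Prg2* and 1.002 for *Siglecf*. The labels link same-numbered libraries by number only. The deviations of these libraries correlated at 0.27, -0.44, 0.34 and -0.16, and 0 of 4 libraries correlated best with its own number. Whether a number also marks a batch cannot be told from these values. *Kit*, *Prg2* and *Siglecf* kept a positive log2 fold change under every alternative that gave a value, from 0.94 to 1.65 for *Kit* 1.69 to 2.94 for *Prg2* and 0.90 to 1.12 for *Siglecf* with 1 library left out (adjusted p 0.195 to 0.8285 for *Kit*, 0.118 to 0.838 for *Prg2* and 0.0801 to 0.753 for *Siglecf* over all alternatives), and 0.19 for *Siglecf* on log2 TPM with a pseudocount of 1, and *Prg2* gave none with at least 10 counts in every library. Of single values, the CPM difference of *Cma1* turned from -0.628 to 0.00021 without WT library 1, and that of *Ms4a2* from 0.0068 to -0.0238 without *Thra1*PV/+ library 4 and to -0.00115 without WT library 2, 3 or 4. For *Tpsb2* the exact p was 0.457 without any 1 *Thra1*PV/+ library, where 35 arrangements remain. With WT library 1 far above the rest, every arrangement that puts it in the group of 3 exceeds the observed difference. This p of *Tpsb2* is therefore set by the unequal groups and does not show a weaker separation. For *Siglecf* the exact p was 0.0571 without WT library 2 or 3. For *Prg2* and *Ccr3* it reached 0.0286, the smallest it can give, without *Thra1*PV/+ library 2, the only *Thra1*PV/+ library not above all WT libraries, so that the separation follows from the omission. Without any other library it was 0.0857 to 0.200 for *Prg2* and 0.143 to 0.343 for *Ccr3*. With 1 library left out the difference ranged from -0.840 to 0.00021 for *Cma1* and from -0.0238 to 0.0306 for *Ms4a2*. The cause of the other changes was not tested. Depth limits the set, since 7 of 10 genes were under the filter.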

Other observations

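Several receptor genes of mast cells, basophils and eosinophils, chosen after their values were seen, were highest in WT library 3, where the proteases had 3 to 8 counts. *Mrgprb2*, the receptor for cationic secretagogues on connective tissue mast cells, had 98 counts there, 4 to 11 in the other WT libraries with 5 in WT library 1, and 0, 0, 3 and 4 in the *Thra1*PV/+ libraries. *Il5ra* had 422 counts there and 11 to 43 in the other WT libraries. *Cd200r3*, a receptor of basophils and mast cells, had 705 counts there, 6 to 112 in the other WT libraries and 41 to 332 in the *Thra1*PV/+ libraries. *Mrgprb1*, by contrast, had 20 counts in WT library 1, 1 in *Thra1*PV/+ library 3 and 0 elsewhere. *Hdc*, which encodes the enzyme that makes histamine, had 15419 counts in WT library 2, above 1086 to 4220 in the other WT and 2192 to 5084 in the *Thra1*PV/+ libraries. In CPM every *Thra1*PV/+ library lay below every WT library for *Mrgprb2*, as in 2.49% of all tested genes. The nearest libraries, *Thra1*PV/+ library 4 (0.0700 CPM) and WT library 2 (0.0722 CPM), each held 4 counts. The peaks in single libraries were not tested.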
